A study of Mus musculus with 7 samples.

Results

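The proteasome is the large protease of the cytosol and nucleus that degrades proteins tagged with ubiquitin. Its barrel-shaped core is built of alpha rings (Psma genes) around beta rings (Psmb genes), and a regulatory particle of ATPases (Psmc genes) and non-ATPase subunits (Psmd genes) unfolds substrates and feeds them in. In cells exposed to interferon, Psmb8, Psmb9 and Psmb10 encode catalytic beta subunits that take the places of those of Psmb5, Psmb6 and Psmb7, and the resulting immunoproteasome supplies peptides to MHC class I molecules. Blood-forming cells are known to carry some immunoproteasome without added interferon.

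The genes described here are the protein-coding genes of the mouse whose symbol begins with Psm, a letter from a to g and a number, which gave 51 of the 21887 protein-coding genes of the RefSeq table. They comprise the 3 interferon-induced genes, 44 constitutive genes, 2 core genes known for use in single tissues (Psma8 in testis, Psmb11 in the thymic cortex) and 2 genes, Psmc3ip and Psme3ip1, that share the symbol but are named for binding a subunit. The activator genes were counted among the 44, including Psme1 and Psme2, which interferon also induces, and the Psme2 copy Psme2b. The cells were common monocyte progenitors (cMoPs), which give rise to monocytes, sorted from mouse bone marrow. Their chromatin was profiled by CUTAC, in which antibody-tethered Tn5 transposase cuts open DNA beside a histone mark. DE cMoPs carried the variant labelled DE, and WT cMoPs the wild-type form, of the -165 kb enhancer of Zeb2, an E-box-binding transcription factor gene; the sequence change in DE is not spelled out in the labels. Peak lists were available for H3K4me2, which marks promoters and enhancers, from 2 DE and 2 WT libraries of batch 2. For H3K4me3, which marks the starts of active genes, there was 1 list, from WT cells of batch 1. The MDP and IgG libraries were not analysed here, and the age and sex of the mice, and whether replicates came from separate animals, are not stated.

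The H3K4me2 lists held 21968 and 17079 peaks in DE replicates 1 and 2 and 32354 and 28152 in WT replicates 1 and 2, and the H3K4me3 list held 6425. Read totals are not in these lists, so depth is unknown. The shortest interval was 109 bp in both DE lists, 74 and 91 bp in WT replicates 1 and 2 and 96 bp for H3K4me3. Of 8 genes fixed as markers of the sorted cells, 7 had an H3K4me2 peak in all 4 lists, against 37.6% of all protein-coding genes. Cx3cr1 had one in the WT lists alone, a pattern of 3.07% of all genes. Of 5 B cell and 5 T cell genes, none was called in all 4. Cd79a was called in DE replicate 1, Cd3d in DE replicate 1 and WT replicate 2, and Cd4 in replicate 1 of each genotype. The rest were called in no H3K4me2 list, as were 47.6% of all genes. The lists come from bulk cells, so a called peak does not tell what share of cells carried the mark.

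The sequences at the starts of 6 beta subunit genes show where these peaks fell, and are printed for the 3 interferon-induced genes, for Psmb5 and Psmb6, which they replace, and for Psmb4, which no list marked. Each window runs from 250 bases before to 50 bases after the start in the RefSeq table of GRCm38.p6 (mm10), read in the direction of transcription. The windows are chr17:34197945-34198244 (plus strand) for Psmb8, chr17:34187281-34187580 (minus) for Psmb9, chr8:105938343-105938642 (minus) for Psmb10, chr14:54617946-54618245 (minus) for Psmb5, chr11:70525107-70525406 (plus) for Psmb6 and chr3:94886909-94887208 (minus) for Psmb4. Capitals mark the bases that lie in H3K4me2 peaks of both WT lists.
Psmb8: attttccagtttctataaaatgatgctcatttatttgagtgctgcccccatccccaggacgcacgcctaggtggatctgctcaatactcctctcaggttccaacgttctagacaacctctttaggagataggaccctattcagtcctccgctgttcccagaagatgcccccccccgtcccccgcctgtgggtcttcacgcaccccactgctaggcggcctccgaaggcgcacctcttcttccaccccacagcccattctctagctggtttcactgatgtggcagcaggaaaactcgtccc
Psmb9: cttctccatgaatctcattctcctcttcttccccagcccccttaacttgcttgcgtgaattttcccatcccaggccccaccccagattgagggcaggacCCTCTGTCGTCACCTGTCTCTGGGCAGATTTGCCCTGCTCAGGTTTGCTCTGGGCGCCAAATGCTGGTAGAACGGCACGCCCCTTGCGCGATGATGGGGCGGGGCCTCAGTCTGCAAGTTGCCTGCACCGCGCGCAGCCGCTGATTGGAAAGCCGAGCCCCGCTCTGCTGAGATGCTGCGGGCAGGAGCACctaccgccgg
Psmb10: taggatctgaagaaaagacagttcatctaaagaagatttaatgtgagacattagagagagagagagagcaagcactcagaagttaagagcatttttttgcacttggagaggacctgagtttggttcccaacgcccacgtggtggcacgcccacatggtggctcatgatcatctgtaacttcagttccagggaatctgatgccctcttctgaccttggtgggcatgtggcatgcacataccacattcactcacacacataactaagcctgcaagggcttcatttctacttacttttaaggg
Psmb5: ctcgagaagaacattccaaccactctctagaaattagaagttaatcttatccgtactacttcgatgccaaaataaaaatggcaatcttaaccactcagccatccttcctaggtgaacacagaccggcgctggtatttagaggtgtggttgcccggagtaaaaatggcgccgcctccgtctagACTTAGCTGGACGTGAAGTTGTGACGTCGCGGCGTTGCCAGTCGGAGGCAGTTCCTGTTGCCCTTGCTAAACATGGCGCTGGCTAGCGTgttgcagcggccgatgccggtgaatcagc
Psmb6: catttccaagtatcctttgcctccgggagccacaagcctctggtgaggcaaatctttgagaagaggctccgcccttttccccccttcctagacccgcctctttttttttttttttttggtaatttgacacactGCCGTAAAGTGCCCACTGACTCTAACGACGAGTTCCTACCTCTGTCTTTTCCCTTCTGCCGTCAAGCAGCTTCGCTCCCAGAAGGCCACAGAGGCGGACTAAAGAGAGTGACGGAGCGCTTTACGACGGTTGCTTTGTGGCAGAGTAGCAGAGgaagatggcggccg
Psmb4: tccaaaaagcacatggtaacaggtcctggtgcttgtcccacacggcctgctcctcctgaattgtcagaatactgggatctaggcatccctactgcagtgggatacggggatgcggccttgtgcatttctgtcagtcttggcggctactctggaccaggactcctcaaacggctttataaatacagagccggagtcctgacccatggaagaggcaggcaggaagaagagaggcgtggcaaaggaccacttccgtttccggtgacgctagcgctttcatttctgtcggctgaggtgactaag

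In these windows the capitals covered 89 bases of Psmb5 and 153 of Psmb6, both across the start, and 191 of Psmb9. Psmb8 shows none because its peak began downstream of the window in WT replicate 1, and Psmb10 because its peaks lay downstream of the window in all lists. The Psmb8 window held 63 and 163 peak bases in DE replicates 1 and 2, against 0 and 50 in WT replicates 1 and 2. In all 5 lists the Psmb4 window held 0.

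Most proteasome genes were marked. An H3K4me2 peak within 1 kb of either end of the gene, sharing at least 1 bp with that window, was called at 37 and 36 of the 51 genes in DE replicates 1 and 2 and at 42 and 44 in WT replicates 1 and 2. Over all protein-coding genes the shares were 44.8% and 40.2% in DE and 48.1% and 49.1% in WT, against 72.5%, 70.6%, 82.4% and 86.3% of the proteasome genes in the same order. In all 4 H3K4me2 lists 33 genes were called, or 64.7%, where the share over all genes was 37.6%. In none of the 4 were 6 called, or 11.8%, against 47.6% of all genes. H3K4me3 was called at 35, or 68.6%, against 20.8% of all genes. No test was run on these shares, since the genes were chosen by name as a group. The windows of 21 of the 51 genes also hold an end of another protein-coding gene, so a peak there may belong to the neighbour.

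**Figure D1:**
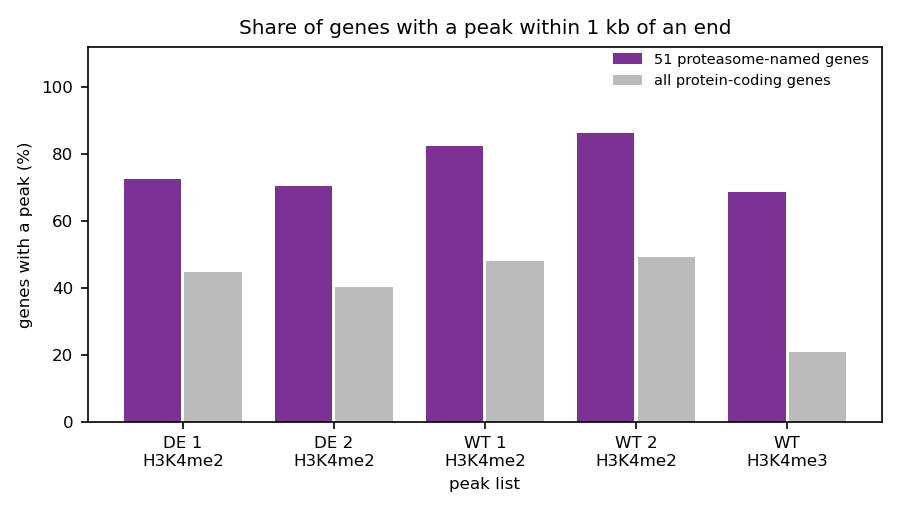
Percent of the 51 proteasome-named genes (purple) and of all 21887 protein-coding genes (grey) with a peak within 1 kb of either gene end, in each of the 5 peak lists. The purple bar is the taller in every list, from 70.6% in DE replicate 2 to 86.3% in WT replicate 2 for H3K4me2.

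The strength of a peak is given here as its place in its own list by the authors' -log10 p, where the top 1% holds the strongest peaks. Among the genes that were called, the median place of the strongest peak was the top 21.7% and 28.3% in DE replicates 1 and 2, the top 17.4% and 19.6% in WT replicates 1 and 2 and the top 28.9% for H3K4me3. Over all called genes these medians were 29.5%, 33.3%, 23.3%, 24.5% and 41.4% in the same order. Places in lists of different length describe each list and show no change between them.

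**Figure D2:**
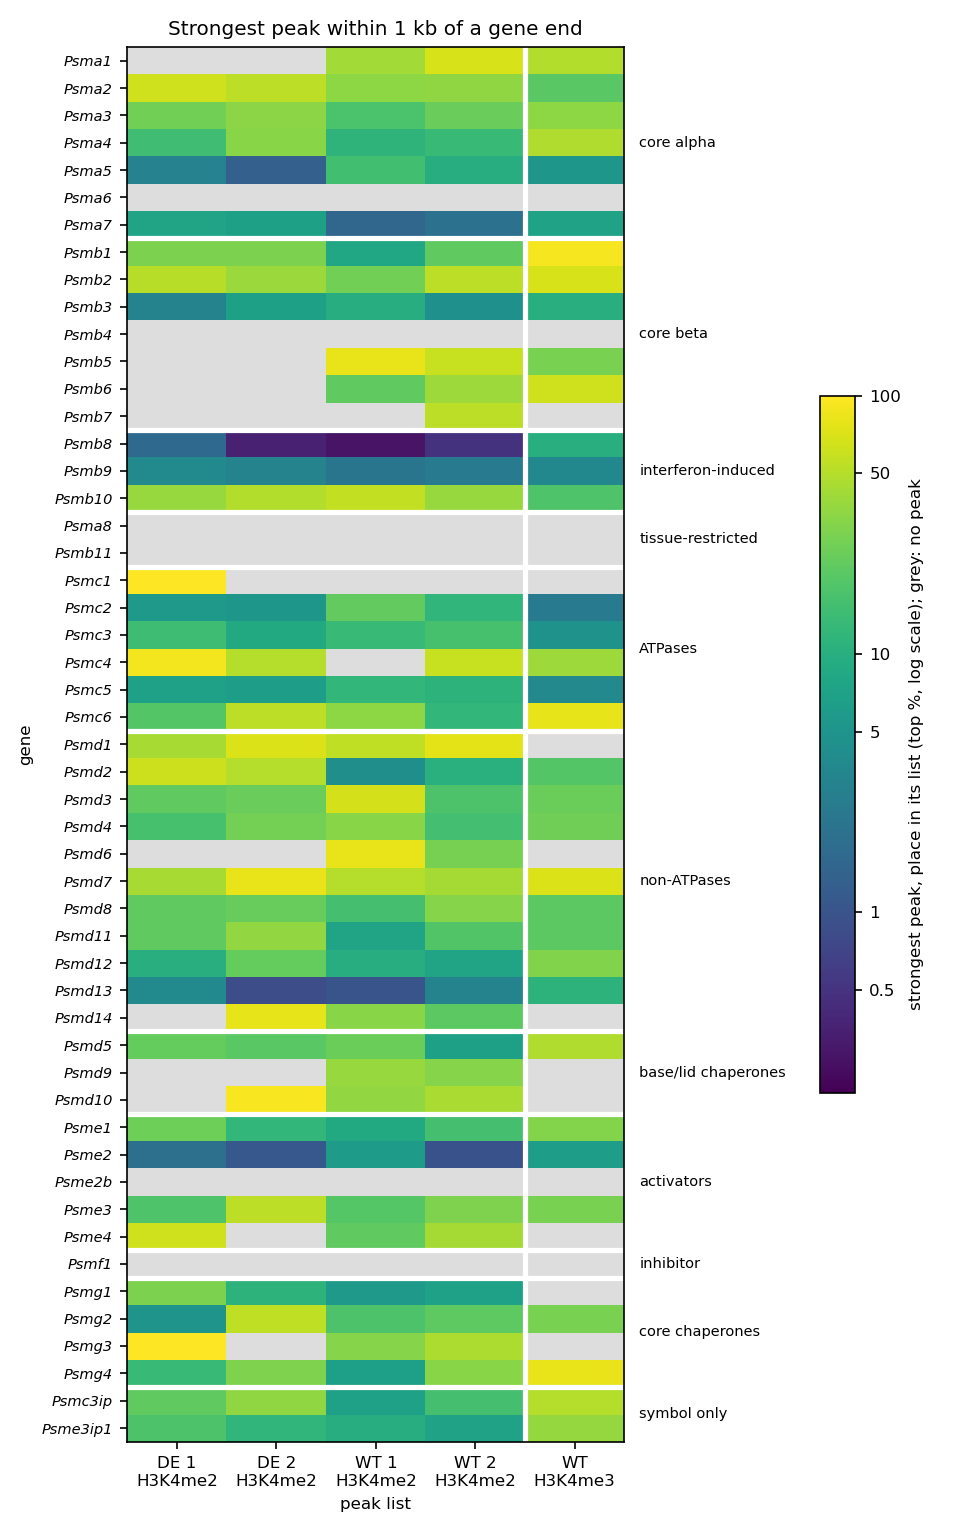
Place of the strongest peak within 1 kb of a gene end in each of the 5 lists (columns; top percent, log colour scale) for the 51 genes (rows, grouped by role); grey marks no peak. Psmb8 has the darkest cell in each H3K4me2 column. Psmb5, Psmb6, Psma1, Psmd6 and Psmd9 are coloured in the WT H3K4me2 columns and grey in the DE columns.

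The 3 interferon-induced genes were called in every list, but their peaks were not alike. Psmb8 (gene ID 16913, chr17:34198195-34201454), which encodes the chymotrypsin-like subunit of the immunoproteasome, had the strongest peak of the proteasome genes in each H3K4me2 list. It lay in the top 1.69% and 0.357% in DE replicates 1 and 2, against the top 0.275% and 0.494% in WT replicates 1 and 2. The authors' -log10 p of this peak was 45.3 and 56.6 in DE, against 72.2 and 98.4 in WT, values that also depend on the depth of each library. Its summit stood at one point in all 5 lists, 154 and 151 bp downstream of the start in DE, 150 and 157 bp in WT and 153 bp for H3K4me3. The H3K4me3 peak at Psmb8 was in the top 9.90% of its list.

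Psmb9 (gene ID 16912, chr17:34182030-34187330), the immunoproteasome subunit that replaces that of Psmb6, was in the top 3.85% and 3.20% in DE and the top 2.26% and 2.64% in WT, and in the top 3.61% for H3K4me3. Its start faces that of Tap1, a subunit of the peptide transporter that feeds MHC class I, across a shared promoter. Relative to the Psmb9 start, the strongest summit stood at -440 and -442 bp in DE and at -466 and -433 bp in WT, all inside Tap1. In WT replicate 1 a separate interval at the Psmb9 start itself, with its summit at -68 bp, was in the top 6.12%. In the other lists the interval with the strongest summit reached across the Psmb9 start, so that both genes share it. Tap1 also ends within 1 kb of the Psmb8 start, so the strongest Psmb8 interval was counted for Tap1 in DE and in WT replicate 2.

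Psmb10 (gene ID 19171, chr8:105935728-105938392), which replaces the subunit of Psmb7, had a narrow peak of middling strength. It ranked in the top 37.9% and 48.4% in DE, against the top 56.7% and 38.0% in WT, and in the top 18.0% for H3K4me3. The intervals were 118 and 150 bp long in DE and 123 and 125 bp in WT. The summit again kept its place, 274 and 279 bp downstream of the listed start in DE, 278 and 285 bp in WT and 280 bp for H3K4me3.

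The constitutive genes that they replace had fewer calls. Psmb5 (gene ID 19173, chr14:54614120-54617995), the chymotrypsin-like subunit of the standard core, had no H3K4me2 peak in either DE list, where the nearest interval lay 8037 and 7937 bp away. In WT replicates 1 and 2 it had intervals of 89 and 96 bp over its start, in the top 81.8% and 59.0%, so both were weak. Its H3K4me3 peak of 103 bp stood higher, in the top 28.9%. Psmb6 (gene ID 19175, chr11:70525324-70527858), the caspase-like subunit, likewise had no peak in DE and had intervals of 153 and 224 bp in WT, in the top 22.0% and 40.6%. Its H3K4me3 peak was in the top 64.1%. Psmb7, the trypsin-like subunit, was called in WT replicate 2 alone, in the top 53.9%, and had no H3K4me3 peak.

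**Figure D3:**
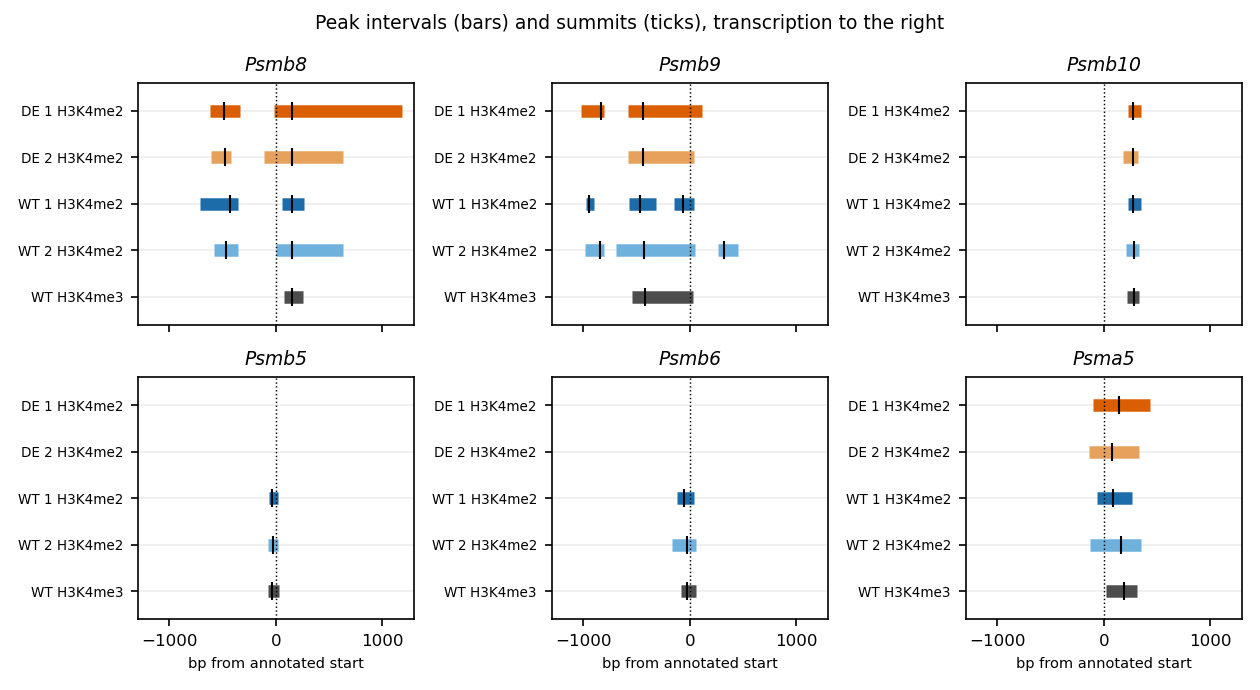
Peak intervals (bars) and summits (ticks) against distance from the annotated start in bp, transcription to the right, for Psmb8, Psmb9, Psmb10, Psmb5, Psmb6 and the core alpha gene Psma5 in the 5 lists (rows). The Psmb8 summits align 150 to 157 bp past the start and those of Psmb10 at 274 to 285 bp, while Psmb5 and Psmb6 have intervals in the WT rows alone.

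Counted by group, the interferon-induced genes were called at 3 of 3 in every list. The 44 constitutive genes, Psme1 and Psme2 among them, were called at 32 and 31 in DE, or 72.7% and 70.5%. They were called at 37 and 39 in WT, or 84.1% and 88.6%, and at 30 for H3K4me3, or 68.2%. Among all protein-coding genes, 44.8% and 40.2% were called in DE, 48.1% and 49.1% in WT and 20.8% for H3K4me3. The median place of the strongest peak was the top 3.85% and 3.20% for the 3 interferon-induced genes in DE, and the top 2.26% and 2.64% in WT. For the constitutive genes that were called it was the top 21.9% and 29.2% in DE and the top 19.3% and 21.6% in WT. With 3 genes, of which Psmb8 and Psmb9 are neighbours, the medians of the interferon-induced group are the values of Psmb9 in each H3K4me2 list, and Psmb10 lay below the constitutive median in all 4. Genes of 1 library are not replicates and no test was made.

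Among the 14 constitutive core genes, 8 were called in all 4 H3K4me2 lists, against 37.6% of all genes. The 8 included Psma7, in the top 7.55% and 6.82% in DE and the top 1.55% and 2.05% in WT. Its strongest interval also touched an end of Ss18l1 in every list. Psma5 was in the top 3.11% and 1.35% in DE and the top 15.4% and 9.62% in WT. It was added after its values were seen, and these places show no change between lists. Psmb3 was in the top 3.21% and 6.82% in DE and the top 9.71% and 4.51% in WT. In WT replicate 1 that interval had its summit at -893 bp from the Psmb3 start and lay 33 bp from an end of Pcgf2. The interval at the Psmb3 start was in the top 24.7% there. Psma2 had the lowest mean place of the core genes called in all 4, in the top 64.2% and 54.0% in DE and the top 35.1% and 35.4% in WT. Psma1 was called in both WT lists, in the top 42.7% and 68.6%, and in neither DE list. It carried an H3K4me3 peak in the top 48.7%.

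Psmb4 and Psma6 had no peak within 1 kb of a gene end in any of the 5 lists. At Psmb4 (chr3:94884324-94886958) the nearest interval lay 46116 and 45926 bp from a gene end in DE, 45953 and 46890 bp in WT and 46854 bp for H3K4me3. Psma6 has a listed start 14603 bp inside the bounds of the gene, and all 5 lists had a peak there. Those H3K4me2 peaks were in the top 16.2% and 30.4% in DE and the top 37.1% and 8.05% in WT. Psmf1, the gene of the proteasome inhibitor PI31, was missed in the same way, with a start 2889 bp inside its bounds. Its H3K4me2 peaks there were in the top 40.0% and 60.0% in DE and the top 81.8% and 21.9% in WT. Psma3 shows the reverse, since the peaks that counted for it lay at the outer bound, 5340 bp from its listed start. Peaks within 1 kb of that start itself were weak, in the top 74.3% and 82.0% in DE and the top 56.4% and 65.1% in WT.

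The RefSeq promoter table lists starts for 43 of the 51 genes, and calls were therefore also counted within 1 kb of these starts, an alternative chosen after the data were seen. By that count 33 and 32 of the 43 were called in DE, or 76.7% and 74.4%, and 38 and 39 in WT, or 88.4% and 90.7%. Of the 17492 protein-coding genes with a listed start, 47.4% and 42.8% were called in DE and 50.9% and 51.9% in WT. In all 4 lists 29 were called, or 67.4%, against 40.3%, and for H3K4me3 30, or 69.8%, against 22.4%. The same 5 genes as at the gene ends, or 11.6%, were called in both WT lists alone, against 3.17%. In both DE lists alone 0 were called, against 0.212%. Of the constitutive genes with a listed start, Psmb4 and the PA28 copy Psme2b were then the members called in none. The tissue-restricted Psmb11 was also called in none, and Psma8, for which no start is listed, had no peak within 1 kb of its gene ends. At the gene ends, the furthest peaks that counted were at Psma3, 976 bp away in WT replicate 1 and 971 bp away in WT replicate 2. The gene nearest to being called was Psmf1, at 2739 to 2794 bp in the H3K4me2 lists. For the strongest peak within 1 kb of a listed start, the median distance of the summit was 78.0 and 77.5 bp in DE, 46.5 and 46.0 bp in WT and 41.5 bp for H3K4me3. The window limits these distances, and they were not set against those of all genes. The summit lay within 100 bp at 20 of 33 and 17 of 32 genes in DE, 25 of 38 and 27 of 39 in WT and 19 of 30 for H3K4me3.

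Genes of the regulatory particle were mostly called. Of the 6 ATPase genes, which form the unfolding ring, Psmc2, Psmc3, Psmc5 and Psmc6 were called in all 4 H3K4me2 lists. Over all genes 37.6% were called in all 4. Psmc5 was in the top 7.05% and 6.29% in DE and the top 12.2% and 11.02% in WT, and in the top 3.77% for H3K4me3. Psmc2 was in the top 5.67% and 5.32% in DE and the top 22.7% and 12.0% in WT. It had the highest H3K4me3 place of the 51 genes, the top 2.68%, and was added after its values were seen. In every list the strongest interval of Psmc5 also touched an end of Ftsj3, and that of Psmc2 an end of Dnajc2. Psmc4 was missing from WT replicate 1, and its peaks were in the top 88.9% and 50.4% in DE and the top 58.8% in WT replicate 2. Psmc1 was called in DE replicate 1 alone, in the top 99.0%, which is close to the limit of the list.

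Of the 11 non-ATPase genes, 9 were called in all 4 H3K4me2 lists, against 37.6% of all genes. Psmd13, a lid subunit, had the second highest mean place of the 33 genes called in all 4, in the top 3.93% and 0.861% in DE and the top 0.998% and 3.20% in WT. Its windows also hold ends of Sirt3 and Cox8b. At the other end of the order stood Psmd1, a scaffold of the base, in the top 43.9% and 72.4% in DE and the top 54.8% and 77.1% in WT. Psmd7, the partner of the deubiquitinase, was in the top 43.9% and 80.7% in DE and the top 49.99% and 43.4% in WT. Psmd2, the other base scaffold, was in the top 62.1% and 50.4% in DE and the top 4.38% and 10.22% in WT. Places in lists of different length show no change between them, and Psmd2 was added after its values were seen. Psmd14, the deubiquitinase that strips ubiquitin chains, was called in DE replicate 2 in the top 79.0% and in WT in the top 33.5% and 20.8%. Psmd6 was called in both WT lists, in the top 81.8% and 28.2%, and in neither DE list.

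Chaperones, activators and the inhibitor were mixed. Of the 3 regulatory-particle chaperones, Psmd5 was called in all 4 H3K4me2 lists. Psmd9 was called in WT alone, in the top 38.4% and 32.7%. Psmd10, also known as gankyrin, was called in DE replicate 2 in the top 93.6% and in WT in the top 36.9% and 45.0%. Of the core chaperones, Psmg1, Psmg2 and Psmg4 were called in all 4, against 37.6% of all genes. Psmg3 was called in DE replicate 1 in the top 98.0% and in WT in the top 32.3% and 46.5%.

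Psme1 and Psme2 encode the PA28 cap, which interferon also induces. Psme2 had the third highest mean place, in the top 1.98% and 1.12% in DE and the top 6.12% and 0.948% in WT. In both DE lists and in WT replicate 1 its strongest peak touched the end of its neighbour Rnf31, and in WT replicate 2 it lay at the Psme2 start. Psme1 was in the top 25.5% and 12.4% in DE and the top 8.71% and 16.0% in WT. Psme3, the nuclear PA28 gamma, was called in all 4 as well, in the top 18.0% and 54.3% in DE and the top 19.3% and 30.2% in WT. Psme4, the PA200 activator, was called in DE replicate 1 in the top 64.2% and in WT in the top 22.0% and 43.7%. Psme2b, a copy of Psme2, had no peak, and neither had the 6 annotated pseudogenes of the family.

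For the comparison of the enhancer variants, 5 proteasome genes had a peak in both WT lists and in no DE list. They were Psma1, Psmb5, Psmb6, Psmd6 and Psmd9, or 9.80%, where 3.07% of all genes had this pattern. The pattern of both DE and neither WT list was found at 0 proteasome genes and at 0.224% of all genes. The DE lists were shorter than the WT lists, and in WT these 5 genes were weaker than the 33 genes called in all 4. Their median place was the top 42.7% and 40.6% in WT replicates 1 and 2, against the top 12.2% and 15.5% for the 33. Their median interval of 120 and 224 bp was also shorter than that of the 33, at 250 and 375 bp. The WT intervals of Psmb5, at 89 and 96 bp, and of Psmd6, at 105 and 108 bp, were shorter than any DE interval. The shortest interval in both DE lists was 109 bp, and its part in these calls was not tested. With the H3K4me2 lists trimmed to the 17079 strongest peaks apiece, the WT pattern was found at 3 genes, Psmb6, Psmd9 and Psmg3. This is 5.88%, where the share over all genes was 1.18%. The DE pattern was found at Psmd1, or 1.96%, where the share over all genes was 1.06%. Psma1, Psmb5 and Psmd6 thus lost the pattern with lists of equal length. At a -log10 q of at least 5, 24 proteasome genes, or 47.1%, were called in all 4 lists, against 23.5% of all genes. In both WT lists alone 8 were called, or 15.7%, against 5.35%, and in both DE lists alone 0, against 0.0959%. The 8 were Psma2, Psmb6, Psmd2, Psmd9, Psmd10, Psmd14, Psme4 and Psmg3, so Psma1, Psmb5 and Psmd6 lost the pattern there too. With each peak given to the nearest gene end, the counts were 32, 5 and 0. These are 62.7%, 9.80% and 0% of the 51 genes, against 35.2%, 3.24% and 0.251% of all genes. The DE pattern was found at Psmc1 without DE replicate 2 and at Psmc4 without WT replicate 2.

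Bases in peaks within 1 kb of the gene ends were compared for single genes. Psmb8 had 1440 and 1229 covered bp in DE replicates 1 and 2, against 557 and 1186 bp in WT replicates 1 and 2. The means were 1334.5 ± 149 bp in DE and 871.5 ± 445 bp in WT (SD, n = 2 each), a difference of 463 bp (exact two-sided permutation p = 0.333). Both DE values lay above both WT values, and 0.333 is the smallest p that 2 against 2 libraries allow. The difference was 148.5 bp without WT replicate 1, 777.5 bp without WT replicate 2, 249.5 bp within 500 bp and 222.5 bp at a -log10 q of at least 5. At that q the groups overlapped. DE replicate 2 kept a single interval of 748 bp, while WT replicate 2 kept all its intervals and its 1186 bp. Over the whole lists, the median interval was 249 and 246 bp in DE replicates 1 and 2. In WT replicates 1 and 2 it was 152 and 212 bp. The part of these widths in the Psmb8 difference was not tested. Psmb9 had 889 and 620 bp in DE and 516 and 1115 bp in WT, and Psmb10 had 118 and 150 bp in DE and 123 and 125 bp in WT. For both the groups overlapped (exact permutation p = 1 for each).

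Psmb6 had 0 covered bp in both DE libraries, against 153 and 224 bp in WT. Psmb5 had 0 in both DE libraries, against 89 and 96 bp in WT. Psma1 had 0 in DE and 215 and 302 bp in WT, Psmd9 had 0 in DE and 120 and 233 bp in WT, and Psmd6 had 0 in DE and 105 and 108 bp in WT. The calls of these 5 genes in WT alone fix this order, so no p is given for them. Over the 51 genes, the covered length was lower in both DE than in both WT lists at 11, or 21.6%, where 11.2% of all genes had that order. The 11 were these 5 genes, whose calls fix the order, and Psmb1, Psmb2, Psmd7, Psmd8, Psmd14 and Psme4. It was higher at 4, or 7.84%, namely Psma4, Psmb8, Psmd13 and Psme2, where 8.29% of all genes had that order. The shortest interval was longer in DE than in WT, as given above, and its part in these lengths was not tested.

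**Figure D4:**
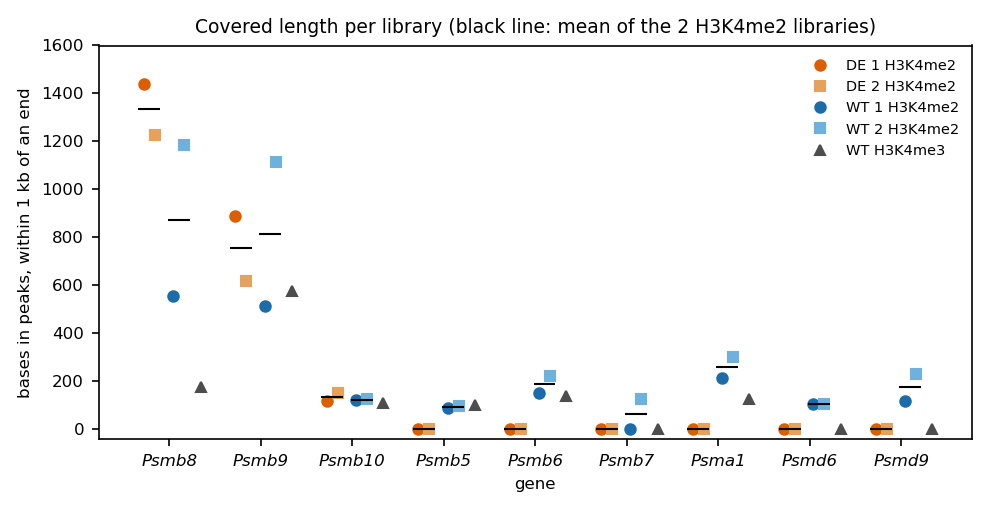
Bases covered by peaks within 1 kb of either gene end in each library, for the interferon-induced genes, the constitutive genes they replace and the other genes called in WT alone; black lines are means of the 2 H3K4me2 libraries of a genotype. The DE points of Psmb8, at 1440 and 1229 bp, lie above its WT points at 557 and 1186 bp, and the DE points of Psmb5, Psmb6, Psmb7, Psma1, Psmd6 and Psmd9 lie at 0.

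H3K4me3 was mostly found where H3K4me2 was called throughout. Of the 33 genes called in all 4 H3K4me2 lists, 31 had an H3K4me3 peak, against 50.8% of all genes called in all 4. The remaining pair were Psmd1 and Psmg1. Of the 18 other proteasome genes, Psma1, Psmb5, Psmb6 and Psmc4 had an H3K4me3 peak, where 2.67% of all genes not called in all 4 had one. Batch and mark cannot be told apart here, since the H3K4me3 library is of another batch.

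Both strands of the promoter windows were searched for an interferon-stimulated response element, spelled GAAA, any 2 bases, GAAA, a gamma-activated site as TTCNNNGAA, an antioxidant response element as TGACNNNGC, a motif bound by the proteasome regulators Nfe2l1 and Nfe2l2, and the CCAAT box. The gamma-activated site was found at Psmb8, as TTCCCAGAA at position -97 from the start, and at Psmd2 and Psmg1, in 6.38% of the 47 windows of these genes against 7.69% of all 21263. The interferon-stimulated response element was found at Psmb3, Psmd4, Psmd9, Psme1 and Psmg4, in 10.6% against 3.35%, and its letters are not in the windows of Psmb8, Psmb9 or Psmb10. The strongest H3K4me2 summits of Psmb8, Psmb9 and Psmb10 lay outside these windows, so the search did not reach those sites. The antioxidant element was found in 12.8% against 13.0%, with matches at Psmb5 as TGACGTCGC at position -47 and at Psmb6 as TGACGGAGC at position -9. Both matches lie in the capitals of the sequences above. CCAAT was in 34.0% against 38.2%. The windows held a median of 19 CpG sites, against 13 in all windows, and the Psmb10 window held 3.

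Other genes of the pathway, from lists of chosen symbols, were mostly called too. Of 17 further proteasome genes found in the table, 15 and 12 were called in DE, 16 and 16 in WT and 10 for H3K4me3, with 12 in all 4 H3K4me2 lists. The shares over all genes, for these and the lists that follow, were 44.8% and 40.2% in DE, 48.1% and 49.1% in WT, 20.8% for H3K4me3 and 37.6% in all 4. Nfe2l1, the transcription factor that induces proteasome genes when the protease is blocked, was in the top 37.6% and 44.3% in DE, against the top 4.71% and 9.79% in WT. Adrm1, a ubiquitin receptor of the regulatory particle, was called in DE replicate 1 in the top 27.7% and in WT in the top 57.3% and 29.0%. Akirin2, which brings the proteasome into the nucleus, was the gene of this list called in both WT lists and no DE list, a pattern of 3.07% of all genes. Of 11 genes of MHC class I presentation, 11 and 10 were called in DE and 10 and 11 in WT, with 9 in all 4, among them Tap1 and Tap2. Of 12 genes of interferon signalling, 12 and 11 were called in DE and 11 and 12 in WT, with 11 in all 4.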

How the data were processed

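CUTAC libraries were made with a CUT&Tag kit without salt at tagmentation and read as 150 bp pairs, per the labels' protocols. Tools listed in the submitters' processing notes, with no role or order, are MACS2 2.2.9.1, Picard, SAMtools, Bowtie2 and Trimmomatic, the build is mm10, and there is 1 list of peaks per sample. Settings of the peak calling, and any control, are not stated there. In every list the deposited entries hold a score (10 times the −log10 q), a fold enrichment (a ratio), the −log10 p and q, and the offset of the summit, which 4 entries of WT replicate 1 lack. These are the authors' own values for each peak. The lowest −log10 q was 1.00 to 1.02. The track lines of both DE lists end in the number 2; samples were taken from the record of the series.

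Entries sharing an interval were counted once, by the strongest p, on the 19 autosomes, X and Y. Gene bounds, with no strand, were those of RefSeq on GRCm38.p6, which is mm10; starts and sequences came from the RefSeq promoter table of that build. All 51 genes were assigned a role by hand. Members and lists were chosen with earlier results of these data known. Values are given for the beta genes exchanged in the immunoproteasome, for genes not called in all 4 H3K4me2 lists, for the 3 highest and 3 lowest mean places, for PA28 and PA200 and for genes chosen from the lists; Psma3, Psma5, Psma7, Psmb3, Psmc2, Psmc5 and Psmd2 were added after their values were seen. Paaf1 was not found in the table. Covered length was compared for 9 genes by exact two-sided permutation over 6 assignments, with no p given for the 5 genes called in WT alone, whose calls fix it; p-values measure only the spread between these libraries, which may be technical. The calling code was tested on simulated data. Alternatives were windows of 500 bp and 2 kb, a −log10 q of at least 5, equal list lengths, 50% of the peak or the summit inside the window, the nearest gene end, listed starts, the replicate block and leaving out each library. Python 3.11.15 and pandas 2.3.3 were used.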

Additional observations from a re-analysis of the deposited data

How the results depend on the processing

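Numbers of proteasome genes called per library, in all 4 H3K4me2 lists and for H3K4me3 stayed within 1.5 times under every alternative run. The number called in both WT and neither DE list was 8 at a −log10 q of at least 5 and 3 with lists of equal length, and 5 to 7 with 1 library left out, where 4.01% to 7.39% of all genes had the pattern. The number called in both DE and neither WT list was 1 with lists of equal length, and 0 to 1 with 1 library left out (Psmc1 without DE replicate 2, Psmc4 without WT replicate 2), against 0.439% to 0.978% of all genes. The difference in covered length, DE minus WT, was -61 bp at Psmb9 and turned to 20 bp within 500 bp and 67 bp with lists of equal length, with -360.5 to 238.5 bp when 1 library was left out. At Psmb10 it was 10 bp and turned to -1 bp within 2 kb and -3.5 bp at the stricter q, with -6 to 26 bp when 1 library was left out. The cause was not tested. At Psmb8 it was 463 bp, 249.5 bp within 500 bp, 222.5 bp at the stricter q and 148.5 to 777.5 bp with 1 library left out. The Psmb8 groups overlapped at the stricter q. At both the stricter q and equal list lengths it was -107.5 bp at Psma1, -48 bp at Psmb5 and -54 bp at Psmd6, against -258.5, -92.5 and -106.5 bp. With the replicate block, the exact sign-flip test over 2 pairs gave p = 0.5 for Psmb8, the smallest it allows, so neither this test nor the unpaired one could pass 0.05. Deviations of same-numbered libraries correlated at -0.102 over 11472 genes, and crossed pairs, added after seeing the data, have the same smallest p. Read totals were unknown, so a gene with no call may still carry the mark.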
